A study of Mus musculus with 4 samples.

Results

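Islet capillary endothelial cells were 2330 of 43205 kept cells, from 45709 barcodes in 4 single-cell RNA libraries of mouse pancreatic islets. They were chosen by measured counts. A member had UMIs of 3 or more of the 7 endothelial genes Pecam1, Cdh5, Kdr, Flt1, Plvap, Egfl7 and Esam and none of the leukocyte gene Ptprc. Insulin (Ins1 and Ins2 together), glucagon and somatostatin each took under 3% of its UMIs. At most 1 of the 3 venous genes Selp, Ackr1 and Vwf and at most 1 of the 5 mural genes Rgs5, Notch3, Pdgfrb, Cspg4 and Acta2 was detected, and the 6 interferon-induced genes Ifit1, Ifit3, Isg15, Rsad2, Oasl2 and Irf7 summed to under 4 UMIs. The Cre-positive library held 1092 members, the Cre-negative library 142, the IHG offspring library 626 and the control offspring library 470.

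All libraries came from male mice aged 8 weeks, with 1 library per group and the number of mice behind a library not given in the sources used here. Cre-positive mice were Tet2(flox/flox)Tet3(flox/flox) with Pdx1 cre, and Cre-negative mice carried both floxed genes without it, so both groups had the floxed alleles of these methylcytosine-oxidising enzymes. Pdx1-Cre acts in the pancreatic epithelium, from which beta cells arise, and not in endothelium by lineage, so capillary cells were not the cells targeted. IHG offspring were born in a model of intrauterine hyperglycemia and control offspring in the matching control model, and the labels give neither group a floxed allele. Islets were taken out with collagenase, picked by hand, kept in culture medium and dissociated with trypsin before capture, and the UMIs tag the 3' ends of transcripts.

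Islets are threaded by a dense bed of capillaries whose endothelium has fenestrae, small pores that let hormones and nutrients pass between blood and endocrine cells. Plvap builds the diaphragms that span these pores, and Kdr and Flt1 are receptors for the growth factor VEGF-A, which beta cells release and on which islet capillaries depend. In turn the capillary cells lay down the basement membrane on which beta cells rest.

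The members were shallow beside other islet cells. Their median depth was 1861.5 UMIs in the Cre-positive, 1896 in the Cre-negative, 2040 in the IHG offspring and 1627 in the control offspring library, against 10765, 10093, 9078 and 6131.5 UMIs in insulin-rich cells of the same libraries. Summed over members the libraries held 2320521, 356470, 1545875 and 874125 UMIs, so that a level of 50 CPM (UMIs of a gene per 1000000 summed UMIs) stood for 116, 17.8, 77.3 and 43.7 UMIs. Levels of the Cre-negative members therefore carry the widest counting error. Between 58 and 246 barcodes were shared by pairs of libraries, 1 of them a capillary barcode in both. The control offspring library stood apart at the mural step of the rule, and the Cre-negative library in endocrine RNA, both described below.

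The capillary share of kept cells was 11.4% (10.8 to 12) in the Cre-positive library and 2.40% (2.02 to 2.82) in the Cre-negative library, with exact binomial 95% intervals that cover counting error only. It was 5.24% (4.85 to 5.66) in IHG offspring and 2.98% (2.72 to 3.26) in control offspring. The Cre-positive share was the highest of the 4 libraries. Before the other limits, cells with 3 or more endothelial genes made up 20.1% and 3.8% of kept cells in the Cre-positive and Cre-negative libraries and 9.63% and 8.76% in IHG and control offspring, so IHG offspring lay further above control offspring after the limits than before them. The limit on mural genes took out 180 (10.8%) of the Cre-positive, 3 (1.55%) of the Cre-negative, 36 (4.78%) of the IHG offspring and 543 (51.9%) of the control offspring cells that had reached it. With no mural limit the shares were 12.8%, 2.43%, 5.50% and 6.05%, which put control offspring above IHG offspring. The part that hand picking and dissociation have in these shares was not tested.

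**Figure D1:**
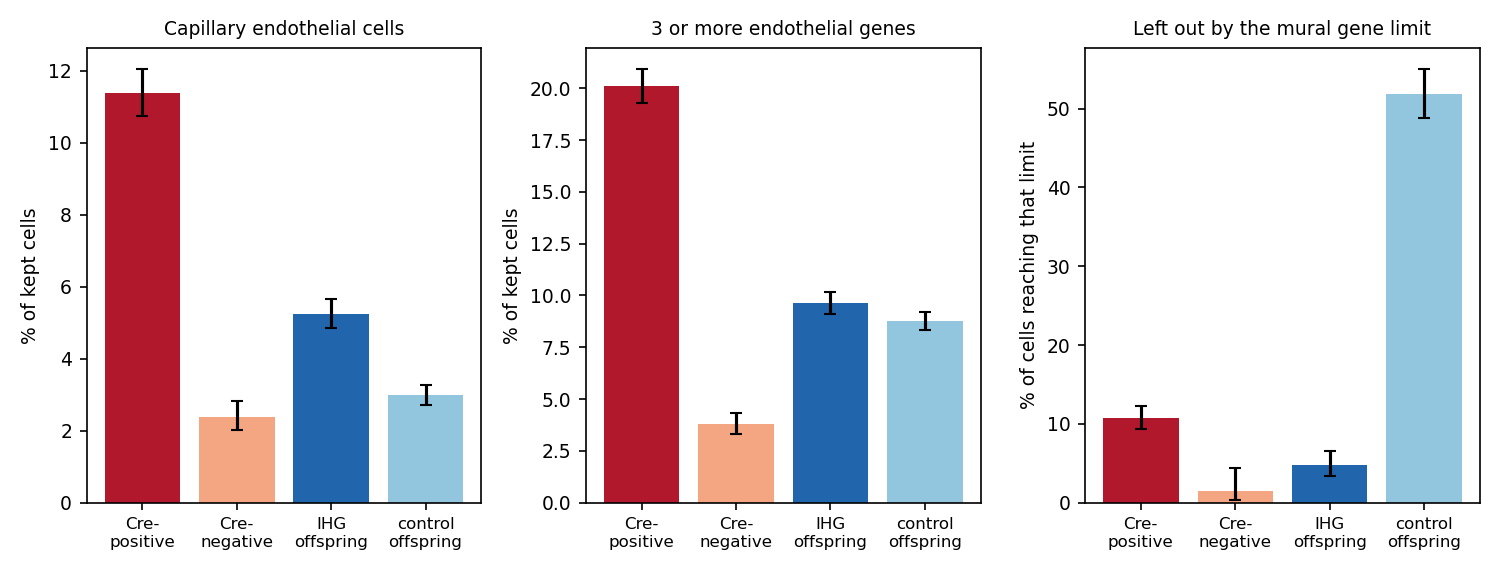
Bars give the capillary share of kept cells, the share with 3 or more endothelial genes, and the share of cells left out at the mural step, by library, with exact binomial 95% intervals of counting error. The Cre-positive library is highest at 11.4% and 20.1%, and the control offspring library lost 51.9% at the mural step.

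The other limits also took unequal parts. The hormone limit removed 10.1% and 9.78% of cells at its step in the Cre-positive and Cre-negative libraries, and 33.8% and 24.1% in IHG and control offspring. The interferon limit removed 26.9%, 25.7%, 12.7% and 6.56% in the same libraries. Cells just inside the endothelial limit, with exactly 3 of the 7 genes, numbered 12, 3, 1 and 8. Those of the Cre-positive and control offspring libraries were shallow, with median depths of 934 and 845 UMIs and Plvap at 1424 and 5442 CPM. The 3 Cre-negative cells at the limit had a median of 7994 UMIs and Plvap at 158 CPM, and the 1 IHG offspring cell had 7441 UMIs and no Plvap. Cells just outside, with 2 of the 7 genes and within every other limit, numbered 16, 24, 7 and 2, with Plvap at 32.9, 22.4, 138 and 0 CPM. At the interferon limit 88, 29, 54 and 17 members had 3 UMIs, and 49, 12, 21 and 18 cells just outside had 4. Plvap was alike on both sides, at 8045 against 8786 CPM in the Cre-positive and 7825 against 7405 CPM in the control offspring library.

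The endothelial marker genes are among those that chose the cells, so their presence was fixed by the rule and is no check of the label. Plvap (chr8:71497765-71511752, minus strand, GRCm38) stood at 8334 CPM in Cre-positive, 8203 in Cre-negative, 9430 in IHG offspring and 8003 in control offspring members, and at 1.32 to 5.19 CPM in insulin-rich cells. Insulin-rich cells had 10% or more of their UMIs from insulin and at most 1 of the 7 endothelial genes, so their low Plvap was also limited by selection. Kdr (chr5:75932827-75978458, minus strand) stood at 7865, 5557, 9003 and 8596 CPM. Flt1 (chr5:147561604-147726011, minus strand) stood at 7632, 5237, 7411 and 7244 CPM. The adhesion molecule gene Pecam1 lay between 1554 and 1753 CPM and the adherens junction gene Cdh5 between 602 and 653 CPM. Among them Kdr and Flt1 were lowest in the Cre-negative members, while Pecam1 and Cdh5 varied little.

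Outside the rule, a further 25 genes stood highest against mural and insulin-rich cells in all libraries. Ly6c1, a surface protein of capillary endothelium, led them with 3506, 4494, 2892 and 2039 CPM in Cre-positive, Cre-negative, IHG offspring and control offspring members, 118-fold or more above mural and 695-fold above insulin-rich cells in each library. Igfbp3, a carrier of insulin-like growth factors, stood at 3514, 2516, 3341 and 3382 CPM. Esm1, a secreted proteoglycan of VEGF-stimulated endothelium, stood at 2443, 2056, 4161 and 4998 CPM, higher in both offspring libraries than in both floxed libraries. The angiopoietin co-receptor gene Tie1, the phosphatase gene Ptprb that restrains Tie2 signalling, the mucin-like genes Cd300lg, Emcn and Podxl, the transcription factor gene Sox18, the orphan receptor genes Adgrf5 and Adgrl4, and Pdgfb, the signal that recruits pericytes, were also among them. Pdgfb stood at 241, 373, 432 and 287 CPM, 16.6-fold or more above both other cell types within each library. Levels of these 25 genes ranged over less than a factor of 3 between libraries for each gene.

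**Figure D2:**
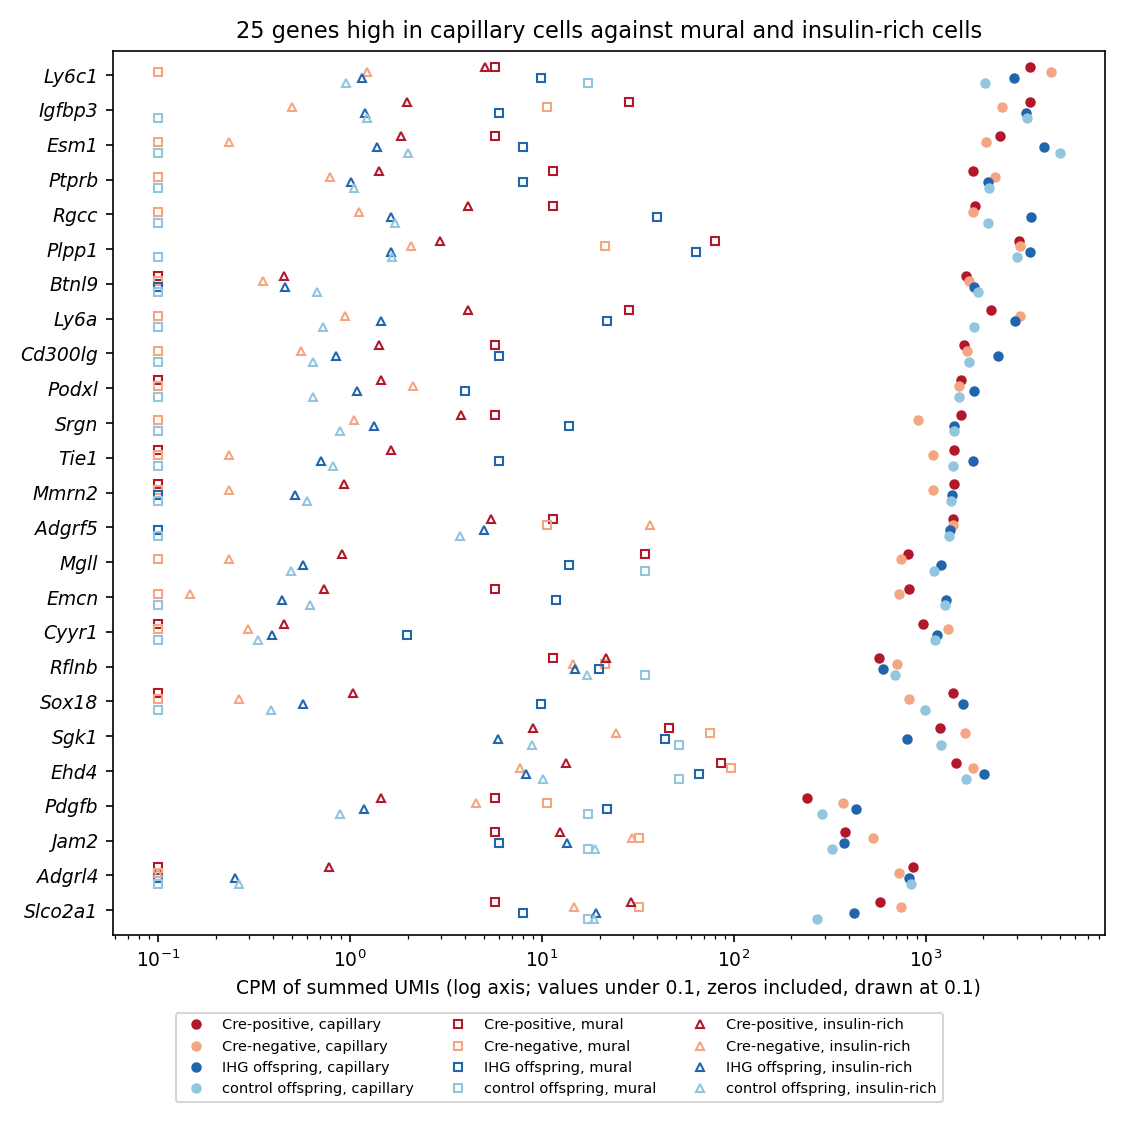
Each row is a gene, the axis gives CPM of summed UMIs on a log scale, and filled circles, open squares and open triangles stand for capillary, mural and insulin-rich cells of each library. In every row the 4 capillary points lie to the right of all others, and within each library the capillary level is 14.5-fold or more above that of both other cell types.

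RNA of other cell types was low in the members, with exceptions. The summed markers of macrophages lay between 12.3 and 56.0 CPM, of fibroblasts between 3.88 and 31.5, of acinar cells between 1.29 and 17.2, and of T and B cells between 0 and 5.17 CPM, with most defining markers under 20 CPM in each library. Ductal markers summed to 58.2 CPM in Cre-positive, 11.2 in Cre-negative, 52.4 in IHG offspring and 18.3 in control offspring members. Mural markers summed to 194 CPM in Cre-positive, 14.0 in Cre-negative, 127 in IHG offspring and 2245 in control offspring members. In control offspring Rgs5 alone gave 2163 CPM in 35.5% of cells, while Notch3, Pdgfrb, Cspg4 and Acta2 were at 0. The rule allowed at most 1 of these 5 genes per cell, so members with Rgs5 had none of the others by selection. Endocrine markers summed to 12947, 21848, 10121 and 12388 CPM. They include Ins1, Ins2, Gcg and Sst, which the rule capped in each member. The mural and endocrine sums were thus limited by the rule and are no check of the label. Members also had no UMI of the leukocyte gene Ptprc, so the macrophage and the T and B cell sums were limited by the rule too. Hormone RNA in members was 4.22%, 6.39%, 2.49% and 3.38% of its level in non-endothelial cells of the same libraries.

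Few members were rich in haemoglobin RNA or in endocrine RNA outside the rule, though traces were widespread. A Pyy UMI was found in 46.1% of Cre-positive, 49.3% of Cre-negative, 28.1% of IHG offspring and 15.7% of control offspring members. Only 4 Cre-positive, 4 Cre-negative, 5 IHG offspring and 0 control offspring members had 3% or more of their UMIs from the 6 endocrine genes Chga, Chgb, Iapp, Ppy, Pyy and Ttr. In the Cre-negative library those 4 cells, with a median of 8610 UMIs, held 11.4% of all capillary UMIs and 89.4% of the members' UMIs of these genes. Haemoglobin RNA summed to 2748, 0, 68.6 and 2162 CPM. In the Cre-positive library 17 cells with 1% or more haemoglobin held 99.5% of it, and in control offspring 4 cells held 99.6%, and without such cells the levels were 15.0, 0, 18.8 and 9.25 CPM. The 0 of the Cre-negative members allows a level of up to 8.42 CPM for each gene.

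The first comparison asked how capillary cells differed between Cre-positive and Cre-negative islets. Cre-positive members had higher levels of Hsph1, Bag3, Fosl2, Icam1 and Plaur, and lower levels of Fos, Egr1, Klf2, Txnip and Depp1. Of 4246 genes with 50 CPM or more in either library, 371 (8.74%) were 2-fold or more higher and 456 (10.7%) 2-fold or more lower, with a median log2 ratio of -0.19. With median-of-ratios scaling 417 were higher and 379 lower, 52.4% rather than 44.9% of those past the rule being higher. No gene could be tested, with 1 library per group, and every interval is one of counting error.

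After 4 haemoglobin genes, described below, the interval of Hsph1 lay farthest from 1 among the higher genes, and it was the only chaperone among the 12 named in that direction. Hsph1, a large co-chaperone that recharges Hsp70, stood at 776 CPM in Cre-positive and 44.9 CPM in Cre-negative members, 17.3-fold higher (10.6 to 30.3), from 1801 and 16 UMIs. It stood at 144 CPM in IHG offspring and 423 CPM in control offspring members, so its order over libraries was Cre-positive, control offspring, IHG offspring and Cre-negative. Bag3, a co-chaperone of selective autophagy, stood at 622 against 87.0 CPM in Cre-positive and Cre-negative members, 7.16-fold higher (5.02 to 10.6), and at 264 and 599 CPM in IHG and control offspring. Dnaja1, an Hsp40 partner of Hsp70, was 3.66-fold (3.07 to 4.40) and Hsp90aa1, the inducible Hsp90, 2.85-fold higher (2.49 to 3.28). Hspa1a and Hspa1b, near-identical Hsp70 genes whose reads may be split between them, were 2.02-fold (1.90 to 2.15) and 1.75-fold (1.66 to 1.85) higher, the second of them short of the 2-fold rule.

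These genes were not high in capillary cells alone. In insulin-rich cells of the Cre-positive and Cre-negative libraries Hsph1 stood at 711 and 105 CPM and Bag3 at 255 and 15.4 CPM, and in mural cells Hsph1 stood at 504 and 75 CPM. With every cell thinned to 1000 UMIs, the share of capillary cells with Hsph1 was 44.2% in the Cre-positive and 3.31% in the Cre-negative library (47.5% and 8.65% of insulin-rich cells), and the share with Bag3 was 40.4% and 8.26% (18.9% and 1.65%). The Hsph1 promoter is shown because this gene had the farthest interval from 1 among higher genes with UMIs in both libraries. Plaur, Maff and Txnip are shown because they were among the named genes and hold a match to a motif of AP-1, CREB or forkhead factors, a choice made after their letters were searched. Capitals mark each match. Sequences are RefSeq promoters of 300 bases on GRCm38.p6, from 250 bases before the start, given 5′ to 3′ in the direction of the gene.
Hsph1 (chr5:149636287-149636586, minus strand): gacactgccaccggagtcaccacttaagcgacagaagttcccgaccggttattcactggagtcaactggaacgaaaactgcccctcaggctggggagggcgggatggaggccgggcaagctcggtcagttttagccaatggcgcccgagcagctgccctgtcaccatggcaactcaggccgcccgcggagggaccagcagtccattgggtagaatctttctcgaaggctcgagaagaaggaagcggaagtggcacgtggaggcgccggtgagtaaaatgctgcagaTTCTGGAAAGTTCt
Plaur (chr7:24462233-24462532, plus strand): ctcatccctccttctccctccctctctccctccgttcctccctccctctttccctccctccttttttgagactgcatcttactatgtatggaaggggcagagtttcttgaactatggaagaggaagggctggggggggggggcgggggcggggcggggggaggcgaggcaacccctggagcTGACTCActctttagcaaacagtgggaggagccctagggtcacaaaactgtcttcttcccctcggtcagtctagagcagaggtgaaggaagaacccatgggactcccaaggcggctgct
Maff (chr15:79347270-79347569, plus strand): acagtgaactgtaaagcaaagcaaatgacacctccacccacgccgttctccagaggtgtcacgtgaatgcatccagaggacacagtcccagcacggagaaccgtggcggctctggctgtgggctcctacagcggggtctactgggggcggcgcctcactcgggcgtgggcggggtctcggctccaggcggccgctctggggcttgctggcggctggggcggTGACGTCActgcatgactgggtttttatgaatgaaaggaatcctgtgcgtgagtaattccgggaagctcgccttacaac
Txnip (chr3:96557707-96558006, plus strand): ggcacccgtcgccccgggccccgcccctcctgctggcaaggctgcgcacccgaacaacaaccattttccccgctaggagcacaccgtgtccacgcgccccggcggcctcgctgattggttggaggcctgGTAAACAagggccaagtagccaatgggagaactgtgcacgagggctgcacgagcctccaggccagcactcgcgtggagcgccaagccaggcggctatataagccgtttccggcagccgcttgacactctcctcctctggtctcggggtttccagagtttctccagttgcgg

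Both strands were searched. The capitals in Hsph1 match the heat shock element (GAA, 2 bases of any kind, TTC, 2 bases of any kind, GAA), read on the opposite strand and starting at base 37 of the transcript, a motif found in 0.603% of 32851 promoters. Those in Plaur match the AP-1 element TGANTCA, 69 bases before the start, found in 7.81% of promoters. Those in the second of the Maff starts match the cAMP response element TGACGTCA, 29 bases before the start, found in 1.79%, and those in Txnip match the forkhead element TGTTTAC on the opposite strand, 121 bases before the start, found in 3.65%. No overlap between these motifs occurred in the sequences shown. Among 14 chaperone genes of the heat shock list 11 had a promoter in the table, and 3 of them, Hsph1, Hspd1 and Hspe1, held the heat shock element. A match describes the letters and not a site in use.

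Other named genes higher in Cre-positive members belong to no single list. Nr4a3, an orphan nuclear receptor, stood at 162 and 2.81 CPM in Cre-positive and Cre-negative members, from 376 UMIs against 1, with a ratio of 57.8 (10.3 to 2287). Tiparp, an ADP-ribosyltransferase, stood at 203 and 5.61 CPM with a ratio of 36.1 (9.94 to 299) that rests on 2 Cre-negative UMIs. Maff, a small Maf factor, stood at 271 and 22.4 CPM, 12.1-fold higher (6.08 to 28.1), and the AP-1 member Fosl2 at 908 and 126 CPM, 7.20-fold higher (5.36 to 9.90). Plaur, the urokinase receptor that focuses matrix proteolysis, stood at 350 and 33.7 CPM, 10.4-fold higher (5.93 to 20.2), and at 128 and 247 CPM in IHG and control offspring. Plaur lay between 0.176 and 1.87 CPM in insulin-rich cells. Thinned capillary cells with a Plaur UMI made up 26.3% in the Cre-positive and 4.96% in the Cre-negative library, against 0.15% and 0.05% of insulin-rich cells. The ribosome biogenesis gene Nop58 was 13.0-fold (5.91 to 35.5) and Rabgef1, an endosomal exchange factor, 37.9-fold higher (6.75 to 1505), the Rabgef1 ratio resting on 1 Cre-negative UMI.

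Adhesion and NF-kB genes were described by a list of 31, of which 18 were measured in this comparison. Of these, 6 were 2-fold or more higher and 1 lower, beside 8.74% and 10.7% of all genes, and the median log2 ratio was 0.41. Icam1, the leukocyte adhesion molecule that NF-kB induces, stood at 528 and 61.7 CPM in Cre-positive and Cre-negative members, 8.56-fold higher (5.63 to 13.7), and at 151 and 496 CPM in IHG and control offspring. Stat3 was 3.82-fold (2.94 to 5.06), the NF-kB feedback inhibitor Tnfaip3 8.50-fold (2.86 to 41.6) and the adhesion molecule gene Mcam 2.51-fold higher (2.04 to 3.10). The Tnfaip3 ratio rests on 3 Cre-negative UMIs. Il1r1, an interleukin 1 receptor, was 3.16-fold lower (2.21 to 4.47), at 44.4 and 140.3 CPM, and 21.2% and 35.8% of thinned insulin-rich cells also held it. In mural cells the median of the list was 0.97, with 12 of 19 ratios above 1, and in interferon-state endothelial cells it was -0.14, with 7 of 15 above 1.

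The genes lower in Cre-positive members included immediate early genes of the opposite pattern. Fos stood at 805 CPM in Cre-positive and 3636 CPM in Cre-negative members, 4.52-fold lower (4.21 to 4.85), and Egr1 at 933 and 2780 CPM, 2.98-fold lower (2.76 to 3.21). Klf2, the flow-responsive factor of quiescent endothelium, stood at 297 and 1375 CPM, 4.62-fold lower (4.11 to 5.20). In insulin-rich cells Fos lay the other way, at 2206 and 1438 CPM. Of 38 measured members of the immediate early and heat shock list 13 were higher and 6 lower, beside 8.74% and 10.7% of all genes, with a median log2 ratio of 0.60, and the 6 lower were Fos, Egr1, Egr2, Dusp1, Zfp36 and Btg2. The median was 1.16 in insulin-rich and 1.14 in mural cells, where the medians of all genes were -0.19 in both.

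Txnip (chr3:96557957-96561883), an inhibitor of thioredoxin and of glucose uptake that glucose induces, stood at 378 CPM in Cre-positive, 2070 in Cre-negative, 1036 in IHG offspring and 672 in control offspring members. It was 5.47-fold lower (4.96 to 6.04) in Cre-positive than in Cre-negative members. In insulin-rich cells of the same libraries it stood at 331, 815, 267 and 367 CPM, so the Cre-negative library was highest in both cell types. Depp1 (chr6:116650609-116652794, plus strand), a FOXO-responsive gene of fasting and oxidative stress, stood at 115 and 926 CPM in Cre-positive and Cre-negative members, 8.08-fold lower (6.85 to 9.53), whereas in insulin-rich cells it stood at 239 and 67.4 CPM. Tsc22d3, a glucocorticoid-induced gene, was 3.52-fold lower (2.93 to 4.21). The class I genes H2-Q6 and H2-Q7, near-identical copies whose reads may be split, were 7.81-fold (5.28 to 11.6) and 8.29-fold (5.13 to 13.5) lower. Fbln5, an elastic fibre protein, was 7.97-fold lower (5.37 to 11.9), at 21.1 and 168 CPM, with 53.3% of its Cre-negative UMIs in 1 cell.

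Several lower genes stood beside the endocrine RNA described above. Ttr, Pappa2 and Calb1, which insulin-rich cells also hold, were 9.05-fold, 10.3-fold and 9.34-fold lower in Cre-positive members. Without members of 3% or more other endocrine UMIs the log2 ratio of Ttr was -0.42 and that of Pappa2 -1.74, while that of Calb1 turned to 0.32. The haemoglobin genes were higher, Hbb-bs at least 115-fold on a floor of 3 UMIs per library, with nearly all their UMIs in the 17 cells named above. The G-protein related gene Rasd1 was 10.9-fold lower (7.44 to 16.3), at 19 and 208 CPM.

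**Figure D3:**
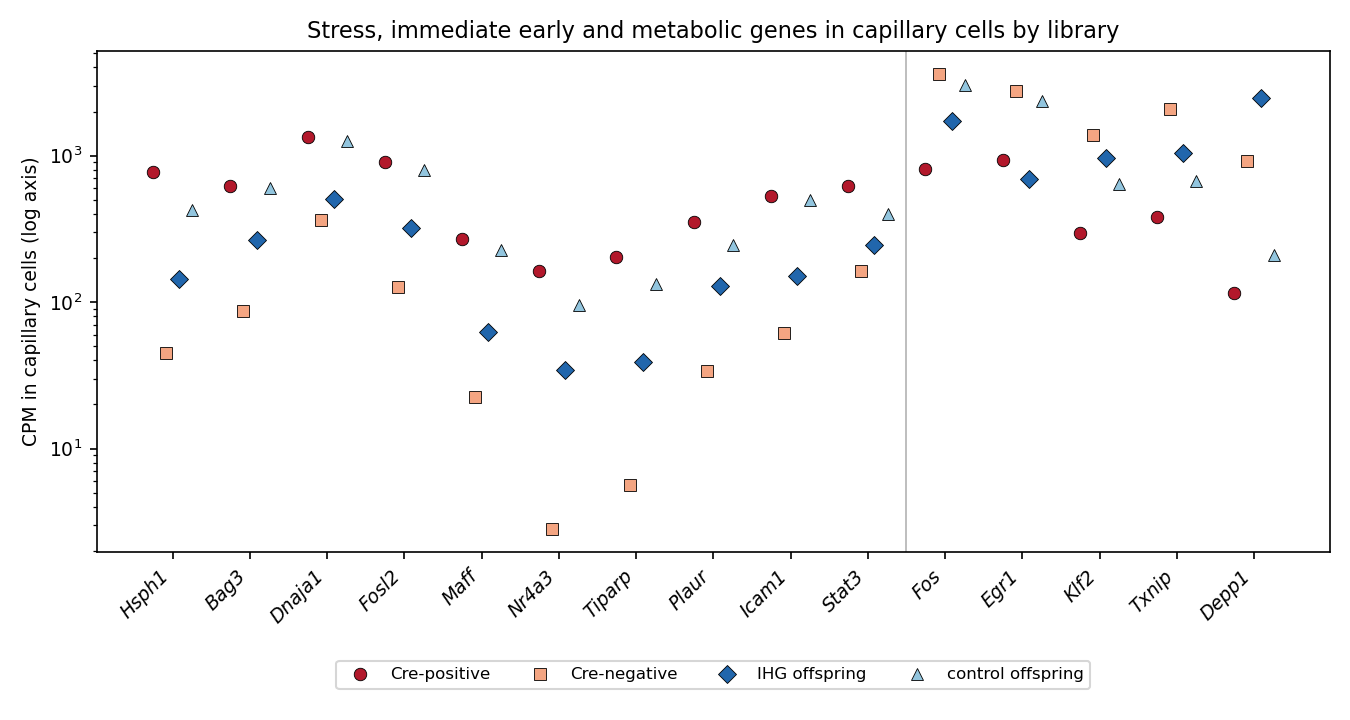
Points give CPM in capillary cells on a log axis for 15 genes in the 4 libraries. The genes and their side of the line were picked by hand, so the order on the left does not stand for every stress gene. To the left of the line Cre-positive and control offspring points lie above Cre-negative and IHG offspring points for each of 10 genes, and to the right the order differs from gene to gene.

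The second comparison asked how capillary cells of IHG offspring differed from those of control offspring. Fewer genes were past the size rule than in the first comparison: of 3921 genes 79 (2.01%) were 2-fold or more higher and 160 (4.08%) lower, with a median log2 ratio of 0.05. The 2 comparisons differ in depth, as 50 CPM stood for 17.8 UMIs in Cre-negative members against 77.3 and 43.7 UMIs in IHG and control offspring. The part of depth in these counts was not tested. IHG members had lower levels of immediate early, chaperone, unfolded protein response and adhesion genes, and higher levels of Depp1, Hlx, Lims2 and Ucp2, with counts for each list below. The mural difference between these libraries, with Rgs5 at 109 and 2163 CPM, stands beside all of these values.

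Depp1 stood out among the higher genes. It reached 2474 CPM in IHG offspring and 210.5 CPM in control offspring members, 11.8-fold higher (10.1 to 13.7), from 3824 and 184 UMIs. After thinning it was found in 58.3% of IHG and 15.1% of control capillary cells, and in 7.20% and 6.75% of insulin-rich cells, so the difference was carried by many capillary cells and was not seen in insulin-rich cells, at 96.0 and 90.4 CPM. In interferon-state endothelial cells of the same libraries Depp1 stood at 1403 and 179 CPM, and in mural cells at 23.9 and 86.7 CPM. Over the 4 libraries the order was IHG offspring, Cre-negative, control offspring and Cre-positive.

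Hlx, a homeobox gene, stood at 274 and 81.2 CPM in IHG and control offspring members, 3.38-fold higher (2.62 to 4.41), and Lims2, a focal adhesion adaptor, at 296 and 98.4 CPM, 3.01-fold higher (2.39 to 3.84). Ucp2, a mitochondrial carrier that lowers oxidant production, stood at 1276 and 570 CPM, 2.24-fold higher (2.03 to 2.48). Ssu2, Leng8, Zfp46, Neat1 and Abhd17a were between 2.97-fold and 3.86-fold higher, on 100 to 184 UMIs in IHG and 18 to 35 UMIs in control offspring members. The hormone genes Ppy and Pyy were 28.6-fold and 14.8-fold higher and Chgb 7.79-fold, and without the members rich in other endocrine RNA their log2 ratios were 0.77, 0.82 and -0.06, so that Chgb changed direction. Fabp4, a fatty acid carrier of capillary endothelium, was 2.01-fold higher (1.79 to 2.25), at 886 and 442 CPM, and the fatty acid receptor gene Cd36 2.24-fold higher (1.47 to 3.53), at 71.8 and 32.0 CPM. Both were higher still in Cre-negative members, at 2132 and 373 CPM, and 2.13-fold (1.96 to 2.31) and 2.14-fold (1.75 to 2.61) lower in Cre-positive than in Cre-negative members. After thinning Cd36 was found in 3.52% of IHG and 3.70% of control offspring members, so the share of cells did not follow its fold. Its control offspring level rests on 28 UMIs, 21.4% of them in 1 cell.

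Immediate early genes were lower in IHG offspring members. Fosb, an AP-1 subunit, stood at 459 CPM in IHG offspring and 2430 CPM in control offspring members, 5.29-fold lower (4.86 to 5.77), and Egr1 at 690 and 2352 CPM, 3.41-fold lower (3.16 to 3.67). Arc was 3.94-fold lower (3.35 to 4.65), Ifrd1 3.78-fold (3.14 to 4.57), the transferrin receptor gene Tfrc 4.98-fold (3.02 to 8.52), Egr3 4.08-fold and the small GTPase gene Gem 4.48-fold lower. Of 36 measured genes of the immediate early and heat shock list 16 were lower and 0 higher, beside 4.08% and 2.01% of all genes, with a median log2 ratio of -0.97. The chaperones Hsph1, Bag3, Dnaja1 and Hsp90aa1 were among the 16, Bag3 at 2.27-fold (1.99 to 2.59) and Hsp90aa1 at 2.82-fold (2.56 to 3.12) lower. The same list had a median of -0.43 in insulin-rich cells and -0.62 in mural cells, with 0 of 26 and 3 of 34 ratios above 1.

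The unfolded protein and integrated stress response list had 16 measured members, 5 of them 2-fold or more lower in IHG offspring and 0 higher, beside 4.08% and 2.01% of all genes, with a median of -0.62. Hspa5, the Hsp70 of the endoplasmic reticulum, stood at 695 and 1988 CPM, 2.86-fold lower (2.65 to 3.09), and the factor Atf4 at 408 and 901 CPM, 2.21-fold lower (1.99 to 2.46). Herpud1, of endoplasmic reticulum degradation, was 2.28-fold lower (2.01 to 2.59). In Cre-positive members 7 of 17 were higher than in Cre-negative members and 0 lower, beside 8.74% and 10.7% of all genes, with a median of 0.44, among them Hspa5 at 2.78-fold (2.46 to 3.15), Atf4 at 2.93-fold (2.43 to 3.56) and the calcium-binding chaperone gene Calr at 2.95-fold (2.45 to 3.59). Adhesion and NF-kB genes had 4 of 16 lower and 0 higher in IHG offspring, set against the same shares, with Icam1 3.29-fold lower (2.80 to 3.88).

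Mgp, a matrix protein of mural cells that inhibits calcification, was 7.99-fold lower (5.31 to 12.4) in IHG offspring, at 18.8 and 150 CPM, but when members with any mural gene were left out its log2 ratio turned to 2.00. Mural cells held 2046 to 6351 CPM of it. The haemoglobin genes were 25.2-fold to 52.6-fold lower, with 99.6% of the control offspring UMIs in 4 cells.

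The 2 control libraries were set against each other as a scale for these differences. They share a library with each of the comparisons above, so values are given side by side only. Of 4267 genes 400 (9.37%) were 2-fold or more higher in Cre-negative than in control offspring members and 351 (8.23%) lower, with a median log2 ratio of 0.12. These percentages lay near the 8.74% and 10.7% of Cre-positive over Cre-negative members and above the 2.01% and 4.08% of IHG over control offspring members. Both comparisons with the larger percentages hold the Cre-negative library, which had the fewest members and summed UMIs. Icam1 was 8.05-fold lower (5.25 to 13.0) in Cre-negative than in control offspring members, Bag3 6.89-fold (4.8 to 10.3) and Fosl2 6.35-fold lower (4.70 to 8.79), while Txnip was 3.08-fold (2.76 to 3.44), Cd36 11.7-fold (7.70 to 18.2) and Fabp4 4.83-fold (4.27 to 5.47) higher. For the immediate early and heat shock list 11 of 37 were lower and 2 higher, beside 8.23% and 9.37% of all genes, with a median of -0.56. Genotype, breeding and library cannot be told apart in any of these contrasts.

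**Figure D4:**
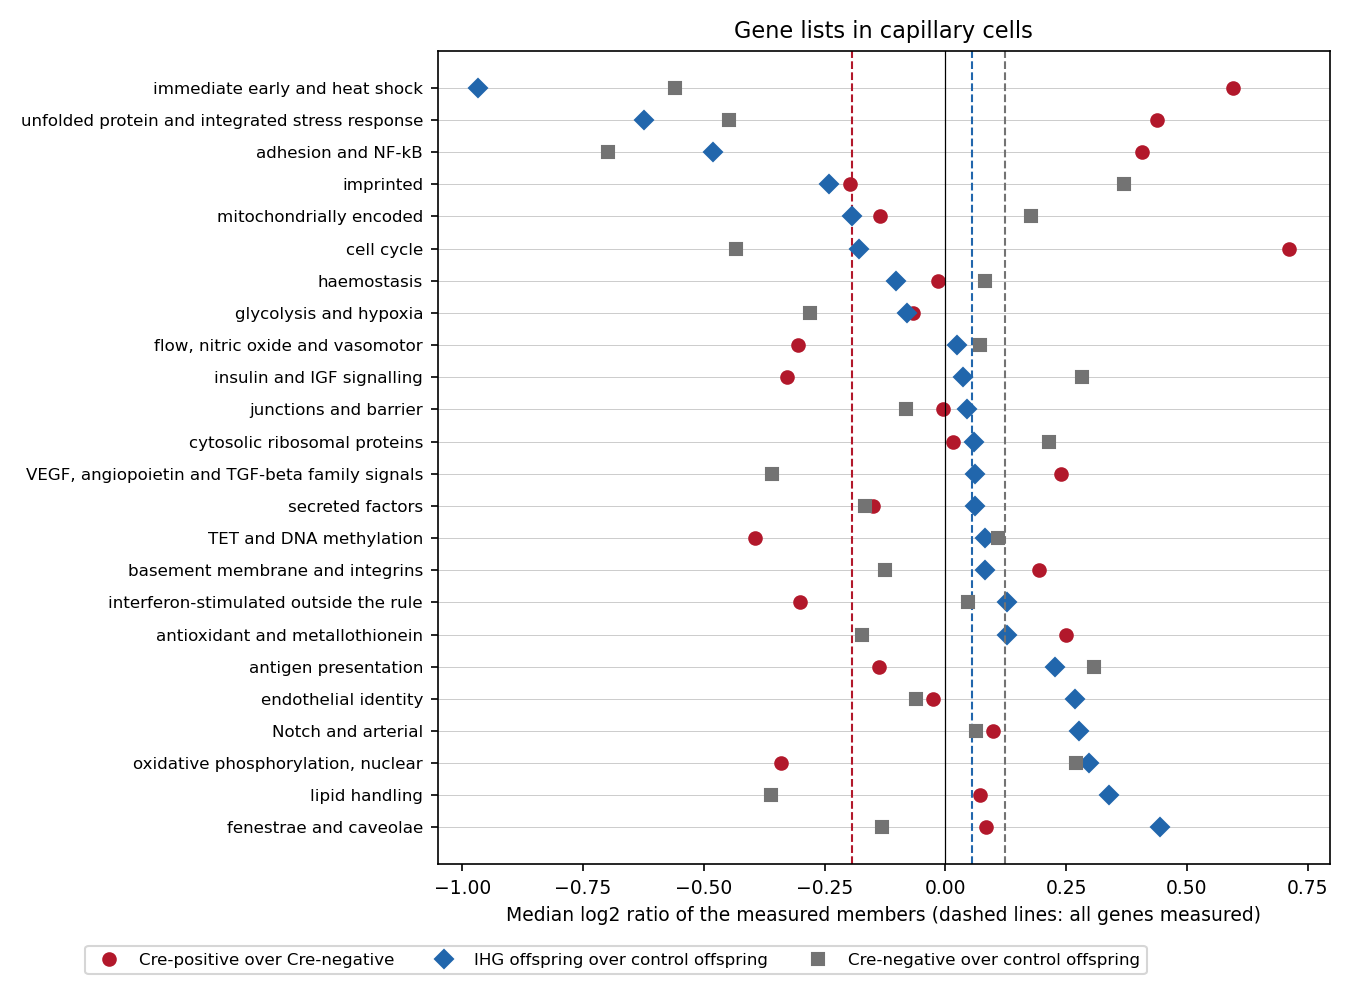
Each row is a gene list and the axis gives the median log2 CPM ratio of its measured members, with circles for Cre-positive over Cre-negative, diamonds for IHG over control offspring and squares for Cre-negative over control offspring, and dashed lines for all genes. Immediate early and heat shock genes lie at 0.60, -0.97 and -0.56, the widest spread of the lists shown.

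Few genes that define the endothelium were past the size rule. In a list of 40 identity genes, 38 were measured in the Cre comparison, of which 1 was higher (Sox7) and 2 were lower (Sox17 and Arhgef15), beside 8.74% and 10.7% of all genes. In IHG over control offspring 0 of 38 were past it, beside 2.01% and 4.08% of all genes, with a median of 0.27, and a count of 0 lies near that background. For fenestrae and caveolae 14 genes were measured, and only Cavin2, which shapes caveolae, was past the rule, 2.27-fold lower (1.92 to 2.66) in Cre-positive than in Cre-negative members. That count lies near the 8.74% and 10.7% of all genes. In IHG over control offspring 0 of the 14 were past it, near the 2.01% and 4.08% of all genes, and the median was 0.44. Cavin2 was 1.71-fold (1.46 to 2.01), Tmem204 1.65-fold (1.52 to 1.79) and Exoc3l2 1.5-fold higher (1.37 to 1.65). The median was 0.18 in interferon-state endothelial cells, with 11 of 14 ratios above 1, and 0.98 in mural cells, with 9 of 9. Of 23 basement membrane and integrin genes 1 was higher (the collagen chaperone gene Serpinh1) and 1 lower (Col18a1) in Cre-positive members, beside 8.74% and 10.7% of all genes. Col4a1, a chain of the main basement membrane collagen, stood at 1857 and 1787 CPM in Cre-positive and Cre-negative members and at 2026 and 1882 CPM in IHG and control offspring. Nuclear genes of oxidative phosphorylation lay at small ratios with few past the rule: in IHG over control offspring 53 of 57 had a ratio above 1 (median 0.30), and 1 was 2-fold higher. Of all measured genes outside the rule 2161 of 3908 lay above 1 in these members. In interferon-state endothelial cells 44 of 57 genes of the list lay above 1 (median 0.45), so the shift was not particular to the members. In insulin-rich cells 26 of 61 (median -0.01) and in mural cells 41 of 65 (median 0.32) lay above 1. In Cre-positive over Cre-negative members 13 of 57 lay above 1 (median -0.34), beside 1643 of 4233 of all measured genes outside the rule.

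Of 17 Notch and arterial genes measured in Cre-positive over Cre-negative members 3 were higher and 6 lower, beside 8.74% and 10.7% of all genes. The Notch ligand gene Dll4, of tip and arterial cells, stood at 646 and 224 CPM, 2.88-fold higher (2.30 to 3.65), the Notch feedback gene Nrarp at 284 and 112 CPM, 2.53-fold (1.84 to 3.57), and the netrin receptor gene Unc5b was 2.24-fold higher (1.53 to 3.42). The arterial genes Sox17, at 117 and 365 CPM, Sema3g, at 149 and 373 CPM, and Gja4, a gap junction subunit, at 63.3 and 149 CPM, were 3.12-fold (2.51 to 3.86), 2.50-fold (2.03 to 3.07) and 2.35-fold (1.68 to 3.23) lower. Jag1, another ligand, was 2.67-fold lower (1.73 to 4.02). Sox17 and Jag1 were also higher in Cre-negative than in control offspring members, 4.76-fold (3.52 to 6.49) and 5.96-fold (3.11 to 12). Gja4 and Sema3g were 2.17-fold (1.58 to 3.04) and 2.07-fold (1.62 to 2.66) higher in IHG than in control offspring members. In the signal list Tgfb2 was 3.01-fold lower (2.35 to 3.84) in Cre-positive members and 2.30-fold higher (1.65 to 3.28) in IHG offspring, and the inhibitory factor Smad7 was 2.29-fold higher (1.88 to 2.80) in Cre-positive members.

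Tip-like members, with 2 or more of the 7 tip genes Apln, Esm1, Angpt2, Pgf, Cxcr4, Dll4 and Adm, were counted after thinning. They made up 37.7% (34.6 to 40.9) of Cre-positive and 18.2% (11.8 to 26.2) of Cre-negative members, and 39.8% (35.7 to 43.9) of IHG and 49.1% (44.2 to 54.1) of control offspring members, against at most 0.05% of insulin-rich cells. Unthinned they were 55.4%, 31.7%, 60.2% and 63.8%. Most of the summed level of the tip genes was Esm1, at 2443 of 3216, 2056 of 2373, 4161 of 4953 and 4998 of 5842 CPM. Esm1 is also a profile gene of the members at large, and Dll4 is also in the arterial list. Dll4 was found in 45.4%, 18.2%, 35.2% and 42.7% of thinned members. The share is thus one of members with these genes and not of tip cells. Members with 2 or more of 8 arterial genes made up 27.6% (24.8 to 30.5), 36.4% (27.8 to 45.6), 28.7% (25 to 32.6) and 25.2% (21.0 to 29.7), with intervals that overlap in all pairs. Unthinned they were 47.4%, 49.3%, 52.4% and 42.6%, and there the intervals of IHG offspring (48.4 to 56.4) and control offspring (38.0 to 47.2) did not overlap. Those with 2 or more lymphatic genes made up 2.00%, 0%, 0.880% and 0.494%, and most of the summed level was Flt4, which fenestrated capillaries also express. Proliferating members were rare, with 1 of 950, 0 of 121, 1 of 568 and 1 of 405, and the 0 in Cre-negative allows up to 2.48%. Esm1 was 2.43-fold lower (2.25 to 2.63) in Cre-negative than in control offspring members and 1.19-fold higher (1.10 to 1.28) in Cre-positive than in Cre-negative members.

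**Figure D5:**
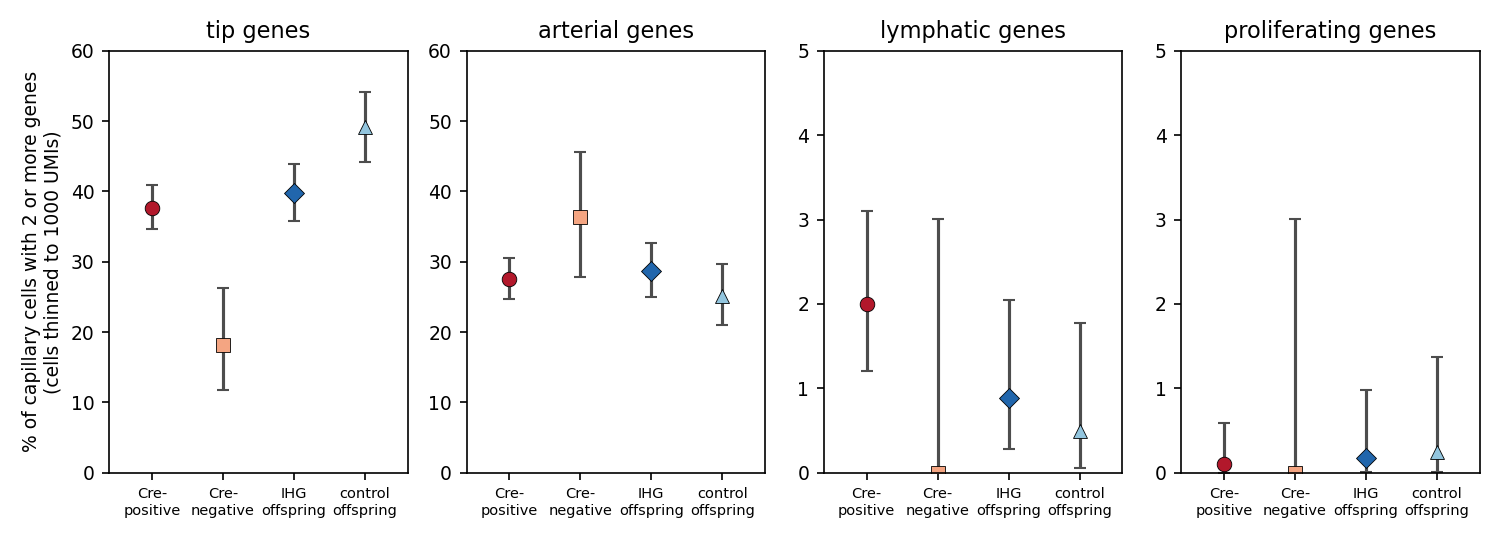
Points give the share of thinned capillary cells with 2 or more genes of each subset list, with exact binomial 95% intervals of counting error. The tip share is lowest in the Cre-negative library at 18.2% and highest in control offspring at 49.1%.

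Signal, haemostasis and metabolism lists were set beside 8.74% higher and 10.7% lower of all genes in the Cre comparison. The list of VEGF, angiopoietin and TGF-beta family signals had 24 measured members in the Cre comparison, of which 3 were higher and 2 were lower. Besides Smad7, the higher ones were Smad6, another inhibitory factor, 2.06-fold (1.44 to 3.05), and the semaphorin gene Sema3f, 2.36-fold (1.68 to 3.43). In the haemostasis list Vwa1, a matrix protein with a von Willebrand factor A domain, was 3.05-fold higher (2.15 to 4.47) in Cre-positive members, beside Plaur above. The median of the haemostasis list was -0.02 in Cre-positive over Cre-negative members and turned to 0.06 with median-of-ratios scaling.

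The antioxidant and metallothionein list had 22 measured members, and in Cre-positive cells 5 of them stood 2-fold or more higher and 1 lower. Mt1, a metallothionein that binds zinc, was 3.14-fold (1.90 to 5.56), the peroxiredoxin gene Prdx1 2.42-fold (2.01 to 2.95) and Nfe2l2, the NRF2 factor of the oxidant response, 2.12-fold higher (1.62 to 2.82). Of 17 glycolysis and hypoxia genes 2 were higher, the glucose transporter gene Slc2a1, 5.19-fold (2.18 to 16.2) on 5 Cre-negative UMIs, and Gapdh, 2.87-fold (2.22 to 3.77). Of 18 insulin and IGF signalling genes 2 were lower, Txnip and Tsc22d3. Both the glycolysis and the insulin count lie near the share of all genes. For ribosomal proteins 76 genes were measured, with 4 higher, 1 lower and a median log2 ratio of 0.02, and 0 of 12 mitochondrially encoded genes were past the rule in either comparison. In IHG over control offspring members the secreted matricellular genes Ccn1 and Ccn2 were 2.44-fold (2.20 to 2.71) and 2.56-fold (2.06 to 3.20) lower.

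Of the smaller lists, imprinted, cell cycle and DNA methylation genes had few measured members. In the TET and DNA methylation list 10 of 25 were measured in the Cre comparison, 0 higher and 1 lower (Apobec3, 5.45-fold, 3.51 to 8.42). That count lies near the 8.74% and 10.7% of all genes. In IHG over control offspring 0 of 10 were higher and 2 lower, beside 2.01% and 4.08% of all genes. Tet3, one of the floxed genes, stood at 64.2 and 70.1 CPM in Cre-positive and Cre-negative members and at 83.5 and 97.2 CPM in IHG and control offspring. As 3' tags may lie outside floxed exons and Pdx1-Cre does not act in endothelium by lineage, this level checks no deletion. The imprinted gene Peg3 was 2.65-fold lower (1.99 to 3.50) in Cre-positive members, with 33.3% of its Cre-negative UMIs in 1 cell. The share of members with a Peg3 UMI was 11.8% in the Cre-positive and 9.86% in the Cre-negative library, so the share of cells did not follow the fold, and insulin-rich cells held it at 907 and 1017 CPM. The imprinted RNA Meg3 was 2.36-fold lower (1.76 to 3.17) in IHG offspring members, and insulin-rich cells of IHG and control offspring held it at 875 and 1084 CPM. Pcna, the replication clamp that DNA damage also raises, was 3.04-fold higher (2.38 to 3.96) in Cre-positive and 2.39-fold lower (2.08 to 2.76) in IHG offspring members, and the cell cycle inhibitor gene Cdkn1a was 2.90-fold lower (2.62 to 3.20) in IHG offspring. Among interferon-induced genes outside the rule, Irf8 was 7.45-fold higher (2.86 to 27.6) in Cre-positive members while Sp100 and Ifi203 were 2.38-fold (1.74 to 3.21) and 2.11-fold (1.73 to 2.55) lower, and Irgm1 and Irf8 were 2.71-fold (2.26 to 3.27) and 2.14-fold (1.46 to 3.15) lower in IHG offspring. The Irf8 ratio of Cre-positive over Cre-negative members rests on 4 Cre-negative UMIs. The interferon limit of the rule had removed cells unequally from these libraries.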

How the data were processed

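Pancreatic islet cells of 4 mouse libraries were read from the deposited matrices, which hold counts per the file headers and values: whole numbers of unique molecular identifiers (UMIs) per gene and barcode for 32285 genes, not normalized. Per the submitters' processing notes Cell Ranger, Seurat and mm10 were used. The sources used here give no version, annotation or strand setting. Gene coordinates came from GENCODE vM21 on GRCm38, which held 32158 of the 32285 identifiers.

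The members, gene lists and comparisons were chosen with earlier results of these data known. A barcode was kept as a cell from 500 genes up when no more than 20% of its UMIs were mitochondrially encoded, the rule for capillary cells was applied to each cell, and UMIs were summed per library. Levels are UMIs of a gene per 1000000 summed UMIs (CPM). A ratio of CPM has an exact conditional binomial 95% interval, a share of cells an exact binomial 95% interval, and in ratios 3 UMIs stood in for a 0. These intervals cover counting error only. With 1 library per group no difference was tested, and genes were counted by size: 2-fold or more apart, from genes that reached 50 CPM in either library. On simulated counts with 3-fold changes, 99.0% of changed genes passed this rule in the Cre comparison (3424 genes), 99.5% in the offspring comparison (3599 genes) and 94.5% in Cre-negative over control offspring (3597 genes), where 0.559% of unchanged genes passed it too. These were Poisson counts of genes at 50 CPM or more in the 2 libraries pooled, without variation between cells or animals. The rates therefore do not cover genes whose UMIs sit in few cells.

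Named genes are the 12 higher and 12 lower genes per comparison whose interval lay farthest from 1, with under 25% of their level estimated as free RNA, plus from each of 24 lists the 4 members with the most UMIs and those past the size rule. Free RNA was estimated from hormone genes. The profile holds the 25 genes with the highest smallest ratio to insulin-rich and mural cells over the 4 libraries. Shares of cells with a gene were taken after thinning each cell to 1000 UMIs, without 142 Cre-positive, 21 Cre-negative, 58 IHG offspring and 65 control offspring cells under that depth; 2000 insulin-rich cells per library were thinned alike. Scrublet (scanpy 1.11.5) marked 1.67%, 0.101%, 4.39% and 0% of cells of these libraries and had not worked in Cre-negative and control offspring, so no doublets were removed and leaving out the top 6% of scores was an alternative. Further tools were pandas 2.3.3, scipy 1.17.1 and numpy 2.4.6 under Python 3.11.15, with matplotlib 3.10.9 for figures. Other alternatives were another endothelial, hormone, interferon or depth limit, other scalings, minimum levels and folds. The mural limits and the limit on other endocrine RNA were added after the data were seen. A member of the lists is not reported here.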

Additional observations from a re-analysis of the deposited data

How the results depend on the processing

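Each value rests on 1 library per group and on counting error alone, so differences between animals or preparations are not covered, and Cre-negative values rest on 142 cells. No paired analysis was possible because each group had 1 library and no result came from a test. Shares are given for Cre-positive, Cre-negative, IHG offspring and control offspring. A hormone limit of 1% gave 10.4%, 4.73% and 1.96% for Cre-positive, IHG and control offspring. No interferon limit gave 15.6% for Cre-positive, 3.22% for Cre-negative and 6.01% for IHG. Cells of 1000 UMIs or more gave 9.91% for Cre-positive, 4.76% for IHG and 2.57% for control offspring. The 2 mural alternatives, chosen after seeing the data, gave 9.95% for Cre-positive and 1.92% for control offspring with no mural gene allowed, and 12.8% and 6.05% with no limit. The share was within its interval with 4 or more endothelial genes, without the top 6% of doublet scores and without cells rich in other endocrine RNA.

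Counts of genes past the rule kept within 1.5 times under 10 other ways of choosing cells or genes or of scaling, while with no mural limit 244 genes were lower in IHG offspring and the other 5 counts stayed within it. Thinned cells gave 701 lower in Cre-positive, 170 higher in IHG offspring and 605 higher in Cre-negative over control offspring. At 20 CPM the counts higher and lower were 571 and 1236 for Cre, 300.0 and 269 for IHG and 1046 and 584 for Cre-negative over control offspring. With no minimum level they were 809 and 6272, 1111 and 2139, and 3985 and 960, and at 1.5-fold 706 and 1160, 430.0 and 415, and 959 and 694.

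Reversed log2 ratios were those of Mgp (2.00, no mural gene allowed), Calb1 (0.32) and Chgb (-0.0584, both without cells rich in other endocrine RNA). Counted over named genes and alternatives, a further 111 log2 ratios moved in size without reversing, and 414 stayed the same. With thinned cells 19 moved and 29 stayed, and with no mural limit 15 moved and 33 stayed. Without the top 6% of doublet scores, and likewise with no interferon limit, 13 moved and 35 stayed. With median-of-ratios scaling the list medians of endothelial identity (0.0514), haemostasis (0.0618), junctions and barrier (0.0720) and glycolysis and hypoxia (0.0103) in Cre-positive over Cre-negative, and of flow, nitric oxide and vasomotor genes (-0.00300) in IHG over control offspring, changed sign. At 20 CPM the haemostasis median was 0.43 in Cre-positive over Cre-negative and -0.68 in Cre-negative over control offspring. The cause was not tested. At this depth a gene near 50 CPM rests on 17.8 UMIs in Cre-negative members.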

Other observations

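The cells that the mural limit left out had, by their selection, 3 or more endothelial and 2 or more mural genes. In control offspring the 543 cells had Plvap at 5710 CPM, Pecam1 at 1237 CPM, Rgs5 at 9526 CPM, Notch3 at 757 CPM and the mural matrix gene Mgp at 1817 CPM, with a median depth of 3376 UMIs against 1671 UMIs for cells within the limit. In the Cre-positive library the 180 such cells had Plvap at 5646 CPM and Rgs5 at 4686 CPM at a median of 3709.5 UMIs against 1984 UMIs. Mural cells of the control offspring library numbered 23, fewer than those 543, against 70 in the Cre-positive, 36 in the Cre-negative and 191 in the IHG offspring library.

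Endothelial cells in an interferon state were left out by the rule. Plvap, which helped to choose them as it did the members, stood at 7657 CPM in Cre-positive, 8931 in Cre-negative, 8221 in IHG offspring and 7546 in control offspring cells of this kind, against 8003 to 9430 CPM in members. They numbered 402, 49, 91 and 33. Ly6c1 stood in them at 4683, 5078, 3333 and 2083 CPM, against 3506, 4494, 2892 and 2039 CPM in members. Venous cells numbered 30, 9, 1 and 0, and in the 30 Cre-positive ones Kdr stood at 1198 CPM.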
